A study of Mus musculus with 2 samples.

Results

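The miR-29 family was examined in mouse gastrocnemius, a calf muscle of mostly fast fibres. Its 4 genes, Mir29a, Mir29b-1, Mir29b-2 and Mir29c, were chosen by name from the 2202 miRNA gene rows of the deposited count tables. They lie at 2 loci, each carrying a pair of hairpins in a single primary transcript. Small RNA was sequenced from whole muscle of male B6CASTF1/J mice, an F1 hybrid of C57BL/6J and the wild-derived CAST/EiJ strain, at 25 days of age, and the labels name no treatment. The study holds 1 group with 2 libraries, labelled biological replicates 1 and 2, and no contrast between conditions. The labels describe separate males but give them the same donor identifier. If the libraries came from 1 animal, the SDs below measure technical spread only. Whole muscle mixes fibres with fibroblasts, vessels, nerve and blood, so fewer cells of a type and less RNA per cell cannot be told apart.

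MicroRNAs are cut from a hairpin precursor whose sides yield a 5p and a 3p arm. Bases 2 to 8 of the loaded arm, the seed, pair with messenger RNAs and lower their output. In the miR-29 family the 3p arm is the guide strand, and its best known targets encode extracellular matrix: the fibrillar collagens Col1a1 and Col3a1, elastin and fibrillin. The DNA methyltransferases Dnmt3a and Dnmt3b are further targets. In skeletal muscle miR-29 is known for promoting myoblast differentiation through repression of YY1 and for restraining fibrosis.

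The mature arms are printed because the way the family's reads could be counted depends on them. Sequences are from RefSeq (GRCm38.p6, the same assembly as mm10), 5′ to 3′, with the seed in capitals. The 3p arms were as follows.

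miR-29a-3p: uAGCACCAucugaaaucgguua

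miR-29b-3p (from Mir29b-1 and from Mir29b-2): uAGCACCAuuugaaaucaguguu

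miR-29c-3p: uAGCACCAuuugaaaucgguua

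The 5p arms, which differ in each gene, were as follows.

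miR-29a-5p: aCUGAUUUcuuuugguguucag

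miR-29b-1-5p: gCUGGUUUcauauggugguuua

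miR-29b-2-5p: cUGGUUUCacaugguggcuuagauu

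miR-29c-5p: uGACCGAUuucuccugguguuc

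All 3p arms carried the seed AGCACCA, and among the 1022 gene rows whose mature sequences were matched in RefSeq only these 4 genes had it. The 5p arms had 4 different seeds. Of these, only that of miR-29b-2-5p, UGGUUUC, occurred in another matched gene, Mir6338, which had no count in either library. With positions counted from 1 at the 5′ end, miR-29a-3p and miR-29c-3p differed at 1 of 22 bases (C10U). Over the 22 bases compared, miR-29b-3p differed from miR-29c-3p at 3 bases (A18G, G21U and U22A) and shared its 17 leading bases.

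The miR-29b-3p arm was identical in Mir29b-1 and Mir29b-2. Each of the other arms occurred exactly in 1 annotated miRNA hairpin. Windows of 30 bases that begin 5 bases before each 3p arm show how far the identity runs. Capitals mark the longest stretch shared with the Mir29b-1 hairpin and, for Mir29b-1 itself, with Mir29b-2.

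Mir29a: uuuUCUAGCACCAUcugaaaucgguuauaa

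Mir29b-1: uugUCUAGCACCAUUUGAAAUCAGUGUUcu

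Mir29b-2: guaUCUAGCACCAUUUGAAAUCAGUGUUuu

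Mir29c: UUGUCUAGCACCAUUUGAAAUCgguuauga

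Mir29b-1 and Mir29b-2 shared 25 bases, which cover the whole 3p arm and the 2 bases before it. Mir29c shared 22 bases with Mir29b-1, ending inside the arm, and Mir29a shared 11. Of the windows of 20 bases along each hairpin, 9 of 52 in Mir29b-1, 6 of 62 in Mir29b-2 and 3 of 69 in Mir29c also occurred in another annotated miRNA hairpin, against 0 of 69 in Mir29a. A read with more than 1 place in the genome was set aside by the authors and enters no gene's count. Such reads were 69.8% (replicate 1) and 71.8% (replicate 2) of the total. A read identical to miR-29b-3p matches both miR-29b hairpins. The 2 miR-29b rows thus hold no such read, and they measure neither the amount of miR-29b-3p nor how its loci share it. Counts are per hairpin, with 5p and 3p reads added together.

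Mir29a (ENSMUSG00000065610.1) lies on the minus strand of chromosome 6 at 31062660 to 31062747 (mm10), and no other annotated gene overlaps it. Its partner Mir29b-1 (ENSMUSG00000065604.2, 31063023 to 31063093) lies 275 bases away and precedes it in the direction of transcription. Mir29b-1 overlaps the exon of the long noncoding RNA gene Gm27019 by 2 bases. Mir29b-2 (ENSMUSG00000065412.3) lies on the plus strand of chromosome 1 at 195037040 to 195037120, followed after 426 bases by Mir29c (ENSMUSG00000065548.1, 195037547 to 195037634). Both are exonic in the noncoding transcript gene A330023F24Rik. On the opposite strand both overlap a UTR exon of Cd46, which encodes a complement regulatory protein. None of the 4 miR-29 genes had a count on the opposite strand in either library. The hairpins of the chromosome 6 locus are shown with both mature arms in capitals.

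Mir29b-1: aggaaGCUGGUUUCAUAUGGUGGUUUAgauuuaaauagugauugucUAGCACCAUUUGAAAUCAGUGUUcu

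Mir29a: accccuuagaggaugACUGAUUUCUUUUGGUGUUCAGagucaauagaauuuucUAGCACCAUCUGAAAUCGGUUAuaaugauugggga

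**Figure D1:**
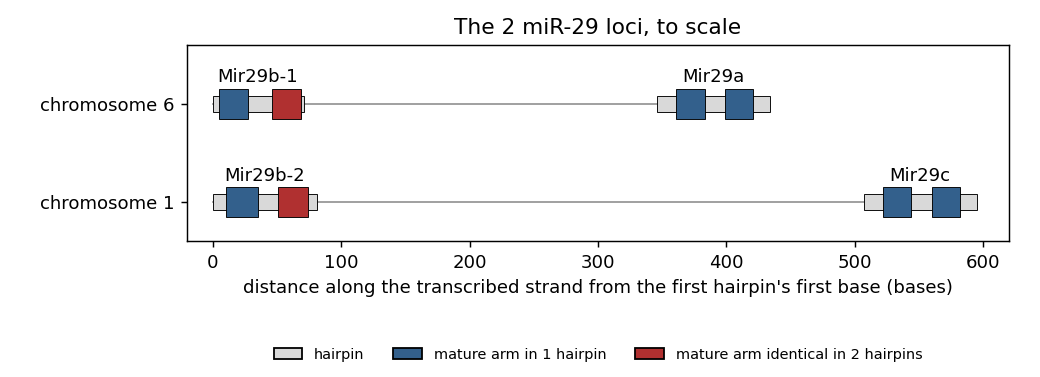
Map of the 2 miR-29 loci, drawn to scale along the transcribed strand from the start of the leading hairpin, in bases. Grey boxes are hairpins, blue boxes mature arms found in 1 hairpin, and red boxes the miR-29b-3p arm that is identical in both miR-29b hairpins, which lead at each locus.

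Mir29a was the most abundant member and accounted for over 75% of the family's counts in each library. It had 1182 counts in replicate 1 and 2584 in replicate 2. Scaled to counts per 1000000 gene counts (CPM), these were 793 CPM (exact 95% interval 748 to 839) and 1274 CPM (1225 to 1324), a mean of 1033 ± 340 CPM (SD, n = 2). It ranked 69 and 58 among the 2202 gene rows. The CPM denominators were 1491341 gene counts for replicate 1 and 2028332 for replicate 2. Reads copied by PCR carry no molecular identifier here, so these and later intervals describe counting error alone.

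Mir29c, which differs from Mir29a at a single base of the guide arm, stood second with 319 and 792 counts. These were 214 CPM (191 to 239) and 390 CPM (364 to 419), with a mean of 302 ± 125 CPM (SD, n = 2) and ranks of 123 and 92. Mir29a counts were 3.71 times those of Mir29c in replicate 1 and 3.26 times in replicate 2, and the intervals of the 2 genes did not overlap in either library. Of the counts of Mir29a and Mir29c together, Mir29c held 21.3% (exact 95% interval 19.2 to 23.4) and 23.5% (22 to 24.9), so the balance between the loci was close in both libraries, with overlapping intervals.

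Mir29b-1 had 24 and 15 counts, or 16.1 CPM (10.3 to 23.9) and 7.4 CPM (4.14 to 12.2), with a mean of 11.7 ± 6.15 CPM (SD, n = 2). Mir29b-2 was the lowest, with 2 and 8 counts, or 1.34 CPM (0.162 to 4.84) and 3.94 CPM (1.7 to 7.77), and a mean of 2.64 ± 1.84 CPM (SD, n = 2). Mir29b-1 exceeded Mir29b-2 in both libraries, but in replicate 2 their intervals overlapped, so their order there was not resolved at this depth. Mir29b-2 in replicate 1 lay under the 2.01 CPM that a count of 0 would allow (3 counts).

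The order of the levels was the same per length of hairpin. Mir29a had 1174 ± 387 CPM per 100 bases, Mir29c 343 ± 142, Mir29b-1 16.5 ± 8.66 and Mir29b-2 3.26 ± 2.27 (SD, n = 2). Apart from Mir29b-1 and Mir29b-2 in replicate 2, neighbours in this order had intervals in CPM that did not overlap in either library.

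**Figure D2:**
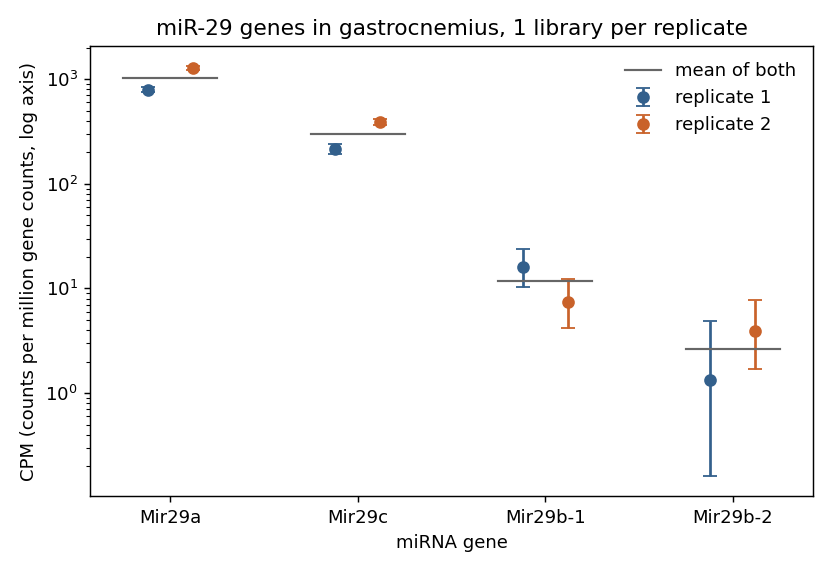
Level of each miR-29 gene in CPM on a log axis, with 1 point for each library, its exact 95% counting interval, and a grey line at the mean. Mir29a and Mir29c lie above 200 CPM in both libraries, and the miR-29b genes lie below 17 CPM.

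Together the 4 genes held 0.102% of gene counts in replicate 1 (1527 counts, exact 95% interval 0.0973 to 0.108) and 0.168% in replicate 2 (3399 counts, 0.162 to 0.173). The chromosome 6 locus, Mir29a with Mir29b-1, supplied 79% of the family's counts (76.8 to 81) in replicate 1 and 76.5% (75 to 77.9) in replicate 2. The remaining 21% (19 to 23.2) and 23.5% (22.1 to 25) came from the chromosome 1 locus. These shares leave out miR-29b-3p.

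Within each transcript the hairpins had very unequal counts. Mir29a exceeded Mir29b-1 by a log2 ratio of 5.59 in replicate 1 and 7.38 in replicate 2, a mean of 6.49 ± 1.26 (SD, n = 2, with 0.5 added to each count). At the chromosome 1 locus Mir29c exceeded Mir29b-2 by 7.0 and 6.54, a mean of 6.77 ± 0.32. Unequal output of the hairpins and reads left out because they match both miR-29b hairpins cannot be told apart here. Mir29b-1 made up 1.99% of the counts of its locus in replicate 1 (exact 95% interval 1.28 to 2.95) and 0.577% in replicate 2 (0.323 to 0.95), and these intervals did not overlap. Mir29b-2 made up 0.623% (0.0755 to 2.23) and 1% (0.433 to 1.96), which did overlap.

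The libraries differed in the 2 members with most counts. Each gene was compared by an exact two-sided binomial test on its counts in the 2 libraries after TMM scaling, with Benjamini-Hochberg adjustment over all 313 genes with at least 10 counts in total. Such a test covers counting error only and compares libraries, not conditions. Mir29a was 1.62-fold higher in replicate 2 (exact 95% interval 1.51 to 1.74, log2 ratio 0.70, binomial test adjusted p = 8.73e-44). Mir29c was 1.84-fold higher (1.61 to 2.1, log2 ratio 0.88, binomial test adjusted p = 1.67e-20). Mir29b-1 stood at a log2 ratio of -1.11 (-2.15 to -0.12, binomial test adjusted p = 0.0563), and Mir29b-2 at 1.57 (-0.76 to 4.84, binomial test adjusted p = 0.339), and neither passed. Of the 4 members 2 were thus higher in replicate 2 and none was lower, where 19.8% of the 313 tested genes were higher and 18.5% lower, 38.3% in either direction. The family's median log2 ratio was 0.79, against 0.05 over all genes tested.

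Over all 313 genes Mir29c had the 23rd and Mir29a the 35th largest ratio in favour of replicate 2. In either direction, 16.9% of the tested genes had a log2 ratio at least as far from 0 as that of Mir29a, and 10.5% as that of Mir29c. When the spread between the libraries was added to counting error, neither gene passed, with adjusted p = 0.694 for Mir29c and 0.986 for Mir29a (edgeR exact negative binomial test). That spread, a coefficient of variation of 18% over 267 genes, was estimated from the same 2 libraries, and 0 of 313 genes passed in that test, with 15 at an unadjusted p under 0.05.

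**Figure D3:**
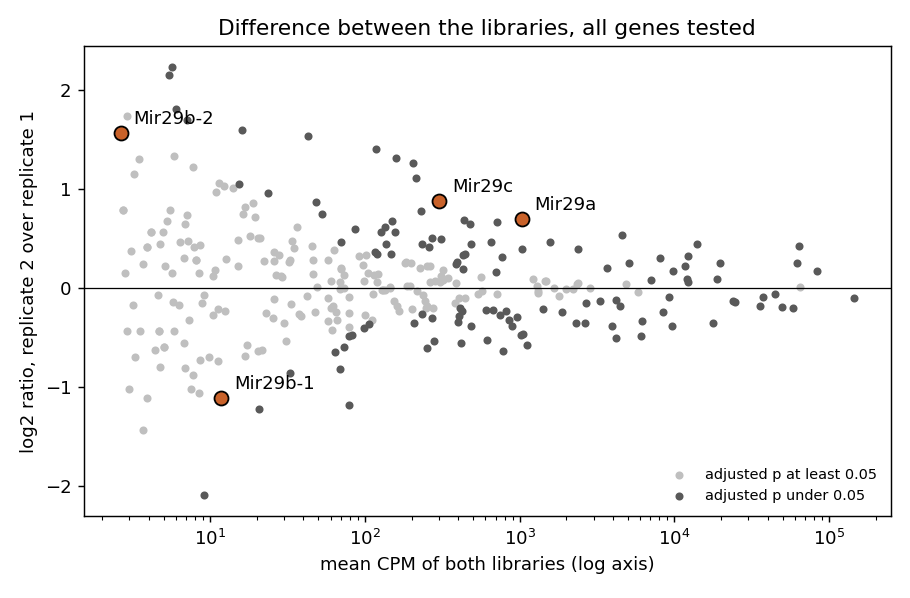
Log2 ratio of replicate 2 over replicate 1 against mean CPM (log axis) for the 313 genes tested, 1 point for each gene, dark where the binomial adjusted p was under 0.05. Mir29a and Mir29c (orange) lie above the line at 0, at 0.70 and 0.88, and the sparse miR-29b genes lie in the wide left part of the plot.

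Values that moved alongside Mir29a and Mir29c are given for the markers of other cells in the muscle. Higher and lower refer to the same binomial test, which covers counting error only, so abundant genes pass at small differences. Over all 313 genes tested, 19.8% were higher and 18.5% lower. The smooth muscle and pericyte pair Mir143 and Mir145a held 5.89% of gene counts in replicate 1 and 7.87% in replicate 2, with 2 of 2 genes higher. The red cell genes Mir451a and Mir144 held 0.0174% and 0.0355%, again with 2 of 2 higher. The fibroblast list held 1.15% and 1.31%: of 4 tested genes, Mir21a and Mir199b were higher and Mir214 lower. The striated muscle list held 5.51% and 4.84%. Within it the slow myosin-gene miRNAs Mir208b and Mir499 were higher, at log2 ratios of 1.31 and 0.69, and Mir206, Mir1a-2 and Mir486 were lower among 8 tested. Endothelial Mir126a held 7.83% and 8.75%. The leukocyte list held 0.266% and 0.229%, with 2 of 4 genes higher and 2 lower. Of the neuronal markers Mir124a-1, Mir124a-2, Mir124a-3, Mir9-1 and Mir9-2 were at 0 and Mir9-3 had 1 count in each library. Every listed arm of Mir9-1 and Mir9-3 is identical in another gene row, so a read identical to it enters no count. No mature sequence was matched for Mir124a-2 and Mir124a-3, and whether their reads were left out likewise was not tested. The neuronal values are thus no measure of neuronal RNA. The hepatic gene Mir122 had 20 and 23 counts. The part of any of these cells in the miR-29 difference was not tested. For the labelled tissue, the skeletal muscle gene Mir206 had 53367 and 46543 CPM, and all 9 striated muscle markers had counts in both libraries. Mir206 held most of that list's counts. Mir1a-2, Mir486, Mir499 and Mir208b had from 136 to 1372 counts in a library. The other rows had few counts: Mir1a-1 had 15 and 23, Mir133a-1 18 and 43, Mir133b 18 and 41, and Mir133a-2 1 and 8. Reads with more than 1 place in the genome are left out of these counts and of the list's shares. Low counts here thus do not show that a mature miRNA was scarce in the muscle.

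Base composition also differed between members. The hairpins of Mir29a, Mir29b-1, Mir29b-2 and Mir29c had 38.6%, 35.2%, 39.5% and 44.3% G and C, each below the median of 49.2% over 214 genes with at least 100 counts in total. Across those genes the log2 ratio and the hairpin's GC content had a Pearson's r of -0.158 and a Spearman's rho of -0.166, given as a description of genes that share the same 2 libraries. With that linear trend removed, Mir29a and Mir29c stood at 0.62 and 0.84 and still passed (binomial test adjusted p = 1.76e-34 and 6.25e-19). Mir29b-1 then passed as lower in replicate 2, at -1.21 (binomial test adjusted p = 0.035).

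The miRNAs of 3 functional lists, chosen with earlier results of these data known, show what else moved. The list linked to fibrosis and extracellular matrix, without miR-29, had 22 genes and 15 tested, of which 8 were higher in replicate 2, 1 was lower and 6 did not pass, beside 19.8% higher and 18.5% lower over all 313 genes tested. Its median log2 ratio was 0.22, against 0.05 over all genes tested. The binomial test covers counting error only, so abundant genes such as Mir30a pass at small differences. In the edgeR exact negative binomial test, 0 genes of any of the 3 lists passed. The fibrosis-associated Mir21a had 10894 and 12583 CPM and a log2 ratio of 0.22 (0.19 to 0.25), Mir30a 18273 and 19293 CPM and 0.09, and Mir30d 9229 and 10283 CPM and 0.17. The 8 higher genes included 4 of the miR-30 family and both Mir101a and Mir101b, and the lower gene was Mir214, a fibroblast miRNA.

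The myogenic differentiation list had 24 of 25 genes tested, with 6 higher, 6 lower and 12 that did not pass, and a median of 0.20. These counts are near the 19.8% higher and 18.5% lower of all genes tested and are no result about the list. In the count column without regard to strand they were 8 higher and 3 lower. Its leading members were Mir378a, located in the gene of a mitochondrial coactivator, at 149905 and 139160 CPM (log2 ratio -0.10), Mir206 at -0.19 and Mir322, which promotes cell cycle exit of myoblasts, at 0.32. MiRNAs that, like miR-29, have been reported to act on DNA methyltransferases formed a list of 6 genes. Of these, 3 were higher (Mir143, Mir101a and Mir101b), none was lower and 3 did not pass, with a median of 0.42, where all genes tested had 19.8% higher, 18.5% lower and a median of 0.05. Mir143 had 55093 and 73266 CPM and a ratio of 0.42, Mir101b 373 and 580 CPM and 0.65, and Mir148a 194 and 195 CPM and 0.02.

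Set beside other families of several loci, miR-29 had few counts, and its share differed more between the libraries. The miR-30 family held 3.52% and 3.89% of gene counts, and the miR-26 family 3.91% and 3.64%. In each family a read identical to an arm shared with another gene row enters no count. These shares are thus not totals of the families' miRNAs. The share of replicate 2 over that of replicate 1 was 1.64 for miR-29, 1.11 for miR-30 and 0.932 for miR-26, and differences between families were not tested. All 3 families had in common that genes with a mature arm identical to that of another gene row held little of the counts. Mir26a-1 and Mir26a-2 held 0.28% and 0.225% of their family's counts in replicate 1, and 0.247% and 0.135% in replicate 2, against 99.5% and 99.6% for Mir26b. Mir30c-1 and Mir30c-2 held 0.2% and 0.49%, and 0.196% and 0.389%. Mir29b-1 and Mir29b-2 held 1.57% and 0.131%, and 0.441% and 0.235%. Mir30b, for which no mature sequence was matched, was as low, at 0.484% and 0.746%, while Mir30d, likewise unmatched, held 26.3% and 26.4%. By the counting rule, the rows with a shared arm hold no read identical to that arm. How much such reads would add to each gene was not tested.

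**Figure D4:**
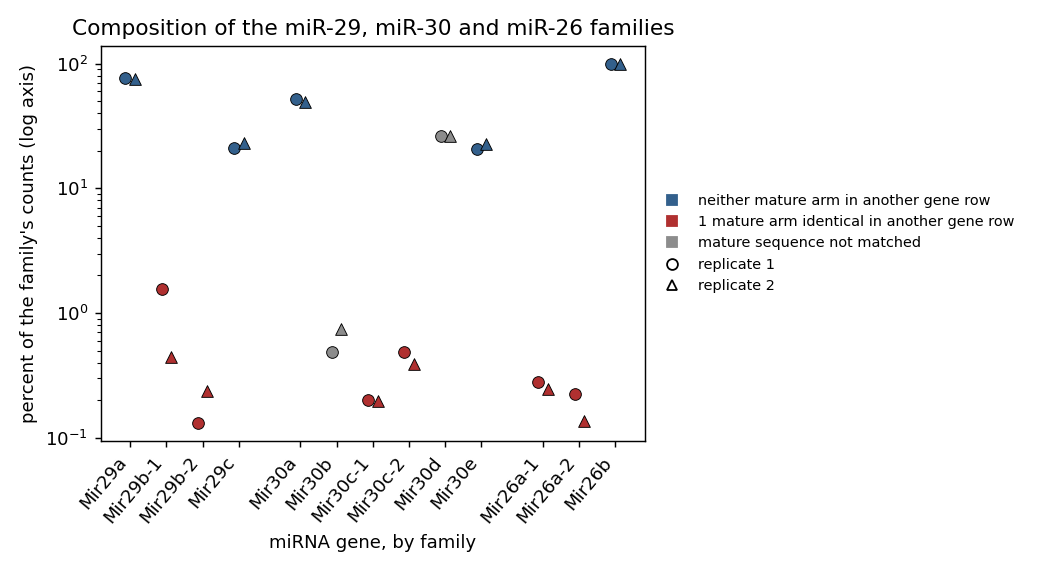
Percent of each family's counts held by each gene, on a log axis, with circles for replicate 1 and triangles for replicate 2. Genes with a mature arm identical in another gene row (red) lie below 2% in all 3 families, and Mir26b, Mir30a and Mir29a lead theirs.

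Among the 1022 gene rows with matched mature sequences, 57 had 1 mature arm identical to that of another such row and another arm that was not. By mean CPM, Mir29b-1 came 27th and Mir29b-2 33rd of these, and Mirlet7f-2 at 4425 CPM and Mir196a-2 at 1415 CPM led. Reads of both arms are added together in these counts, but by the counting rule none is identical to the shared arm. The part of other reads from that arm was not tested. Of the 57, 33 had at least 10 counts in total, with a median of 99.5 CPM. Of the 928 genes with no arm shared with another matched row 243 did, with a median of 120 CPM. Arms shared with the 1180 unmatched rows were not seen, so the 928 can include genes with a shared arm. Mature sequences were matched for 281 of the 313 tested genes.

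Outside the family, the genes closest to Mir29a in level over the 2 libraries were Mir369 (903 and 1177 CPM) and Mir128-1 (1193 and 1261 CPM). Their Euclidean distances on log2(CPM + 1) were 0.219 and 0.589. Closest to Mir29c were Mir376a (259 and 365 CPM, distance 0.294) and Mir223 (225 and 318 CPM, distance 0.305). All 4 had smaller log2 ratios than their miR-29 neighbour, at 0.39, 0.09, 0.50 and 0.51.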

How the data were processed

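Small RNA from 2 gastrocnemius libraries of 1 group was analysed. The authors deposited unnormalized counts of reads for each miRNA gene, on mm10 with GENCODE M21 according to the text deposited beside them. Which aligner, trimming and mismatch settings made them is not given in the sources used here. The tables each held 4 summary rows, left out of totals and tests, and 2202 gene rows, all found in GENCODE M21. Of 3 count columns, that for the strand of the gene was used, and the 4 genes had the same counts in the column without regard to strand. Gene counts took 19.9% and 20.6% of all reads. Another 8.11% and 5.99% did not align, and 2.21% and 1.64% fell outside miRNA genes.

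CPM used the total of gene counts. Ratios used TMM (edgeR 4.0.16, R 4.3.3), and intervals are Clopper-Pearson (scipy 1.17.1). The exact test for replicate 2 over replicate 1 was first checked with simulated counts. Among 317 genes it called 36 of 64 genes changed 1.5-fold, 58 of 73 changed 2-fold, 59 of 62 changed 4-fold and 6 of 118 unchanged. These values hold for the simulated counts only. How often the exact test calls an unchanged gene between the deposited libraries was not tested. With 1 group, no quasi-likelihood contrast could be fitted. The members and lists were chosen with earlier results of these data known. Besides the miR-29 genes, the naming rule took up to 3 genes with the highest mean CPM of each list or family and the 2 nearest genes of Mir29a and of Mir29c. Other genes named were chosen after their values were seen or are cell markers. Alternatives were the other count column, other denominators, size factors from DESeq2 1.42.0, library totals, other count filters, the edgeR exact test and a removed GC trend, the last chosen after seeing the data. For levels, shares and ratios within a transcript, each library was also left out in turn. Matches of mature arms were sought in annotated miRNA hairpins. The genome itself was not used here.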

Additional observations from a re-analysis of the deposited data

How the results depend on the processing

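No paired analysis was possible because there is a single group. Over 23 results, 109 of 131 alternative values kept their direction and their side of the threshold or stayed within the spread, and 0 were reversed. The 109 include 11 values without replicate 1 and 11 without replicate 2. With 2 libraries, each always lies within the SD around their mean. Levels and shares from a single library could thus not leave the spread, and they are no check of the results. The calls for Mir29a and Mir29c held under DESeq2 size factors, library totals, both count filters, the other count column and the removed GC trend. All but the last left the counts of both genes as they were and altered only the scaling or the adjustment, so they test the calls little. The calls ended in the edgeR exact negative binomial test (log2 ratios 0.70 and 0.88, adjusted p = 0.986 and 0.694), whose spread comes from the same 2 libraries. That test also gave 0 higher and 0 lower genes over all genes and over each list. With the GC trend removed, chosen after seeing the data, Mir29b-1 passed at -1.21. Without regard to strand, a column with fewer gene counts in total, Mir29a had 1382 CPM and the miR-26 family held 5.05%. There 8 myogenic genes were higher and 3 lower, and the cause was not tested. With all reads as the denominator, Mir29a, Mir29c, Mir29b-1 and Mir29b-2 had 210, 61.5, 2.36 and 0.54 counts per 1000000 reads, and the miR-29, miR-30 and miR-26 families held 0.0274%, 0.751% and 0.764%. Without the most abundant gene miR-30 held 4.33% and miR-26 4.41%. Mir29b-2 has no value with at least 100 counts, nor has Mir29b-1. Depth limits both miR-29b genes, with 39 and 10 counts in all.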
